A study of Mus musculus with 6 samples.

Results

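The genes that license, copy and repackage DNA in S phase were examined in primary cardiomyocytes from neonatal mouse hearts. The set held 40 genes listed by function, a list drawn up with earlier results of these data known. Among them were the Mcm2 to Mcm7 helicase subunits, the GINS and replication factor C families and the replicative polymerases. The enzymes of nucleotide supply, the E-type cyclins and E2f1 were also included. Each of the 40 was found by its Ensembl gene ID among the 54532 IDs of the table. All 40 had a mean of at least 0.5 FPKM (fragments per kilobase of exon, a level corrected for gene length and library size) over the 6 samples and so were among the 13794 genes tested.

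The hearts came from mice aged 1 to 3 days whose Rit1 locus had been altered so that RIT1 M90I, a variant of a small GTPase related to RAS, is made once Cre recombinase has acted. The control group (AdGFP, labelled Rit1 +/+) received an adenovirus that expresses GFP, and the other group (AdCre, labelled Rit1 M90I/+) received one encoding GFP-Cre, both on day 3 after isolation. Each group held 3 biological replicates, numbered 1 to 3, and messenger RNA was sequenced on the sixth day after infection. Cells had been left to shed those that stick to plastic and were plated at about 1 heart per well, with no later purification described. Cells without the engineered allele given AdCre were not analysed here, so the recombinase and the variant cannot be told apart. The comparison addresses which transcripts differ between cultured heart cells given AdCre and those given AdGFP.

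Replication begins when the origin recognition complex, Cdc6 and Cdt1 load the Mcm2 to Mcm7 ring onto DNA in G1. At the start of S phase, cyclin E with its kinase and the Dbf4-dependent kinase turn the ring into an active helicase by joining Cdc45 and GINS to it, and the polymerases follow, held to DNA by the Pcna clamp that replication factor C loads. Many of these genes are transcribed through E2F factors, which the retinoblastoma protein holds back until D-type cyclins and their kinases release them. Mouse cardiomyocytes still copy DNA around birth and largely leave the cell cycle within the first weeks of life, while the fibroblasts, endothelial cells and macrophages of the heart can go on dividing.

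The 6 samples held between 24.99 and 32.04 M reads (M, megareads), worked back from the FPKM values, and AdCre 1 was the deepest. A level of 1 FPKM over 2 kb of exon corresponded to between 49.3 and 64.1 reads, and the 40 genes had between 30 and 7441 reads in a sample, with a median of 739. Rit1 itself was at 7.66, 8.99 and 9.01 FPKM in AdGFP 1 to 3 and at 8.9, 9.1 and 9.58 FPKM in AdCre 1 to 3, a total over both alleles that does not check the switch to M90I. The labels call the replicates biological without saying what a number stands for, and p-values measure the spread between these samples.

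Taken by level, the replication genes ranged from a mean of 1.33 FPKM for Fen1 to 38.2 FPKM for Pcna, with a median of 8.15 FPKM against 5.66 FPKM for all genes tested. Of the 40 genes, 34 were higher in AdCre, which is 85% of them against 49.6% of all genes tested. The differences were small. Their median was 0.16 on the log2 scale and their range ran from -0.25 for Rrm1 to 0.73 for Ccne1, whereas the median over all genes was 0.00 with quartiles at -0.18 and 0.16. Summed over the 40 genes, the level was 417, 347 and 346 FPKM in AdGFP 1 to 3 and 473, 365 and 434 FPKM in AdCre 1 to 3. The sum of AdCre 2 thus lay below that of AdGFP 1, and the groups overlapped.

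**Figure D1:**
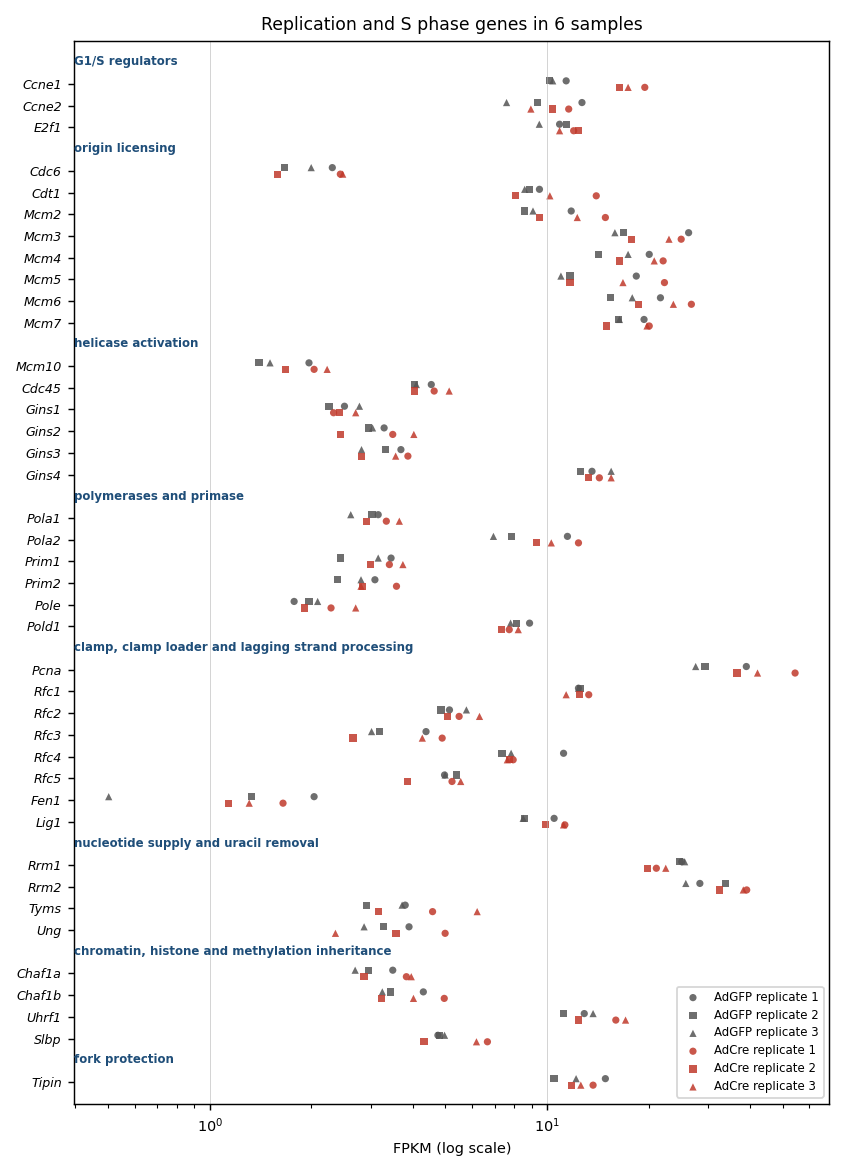
Level of each of the 40 replication genes in FPKM on a log axis, grouped by role, with AdGFP samples in grey, AdCre samples in red and a marker shape for each replicate number. Pcna lies highest with a mean of 38.2 FPKM and Fen1 lowest with 1.33 FPKM, and for most genes the grey and red points interleave.

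Each gene was tested with limma on log2(FPKM + 0.1) over all genes, and fold changes are given on that scale, where those of low genes come out too small. A gene is said to be called at a Benjamini-Hochberg adjusted p under 0.05. None of the 40 genes was called, where 1 of 13794 genes was (0.00725%). At an unadjusted p under 0.05 there were 3 of the 40 (7.5%), namely Ccne1, Pcna and Rrm1, against 10.2% of all genes. Voom on the recovered reads also called 0 of the 40 and had 3 at that unadjusted level. Upper ends of the 95% intervals lay under 1 on the log2 scale, a doubling, for 38 of the 40 genes, and standard errors ran from 0.10 to 0.46 with a median of 0.18.

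Same-numbered samples of the 2 groups deviated together, and a fit with the replicate number as a block called 2 of the 40 genes, Ccne1 and Pcna, both higher in AdCre. That is 5% of the set, against 6.15% of all genes called in that fit and 2.64% called as higher. Under the block 10 of the 40 (25%) had an unadjusted p under 0.05, against 24.7% of all genes, so the set did not stand out from the background by either count. The blocked calls became 1 without the first pair (Ccne1), 0 without the second and 0 without the third. Over all genes the blocked fit called 848, then 772 without pair 1, 149 without pair 2 and 1 without pair 3. It called 17 with no filter on low values and 0 without limma's intensity trend, with 0 of the 40 in either. The other blocked alternatives called between 778 and 1717. These limits hold for every blocked call given here.

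**Figure D2:**
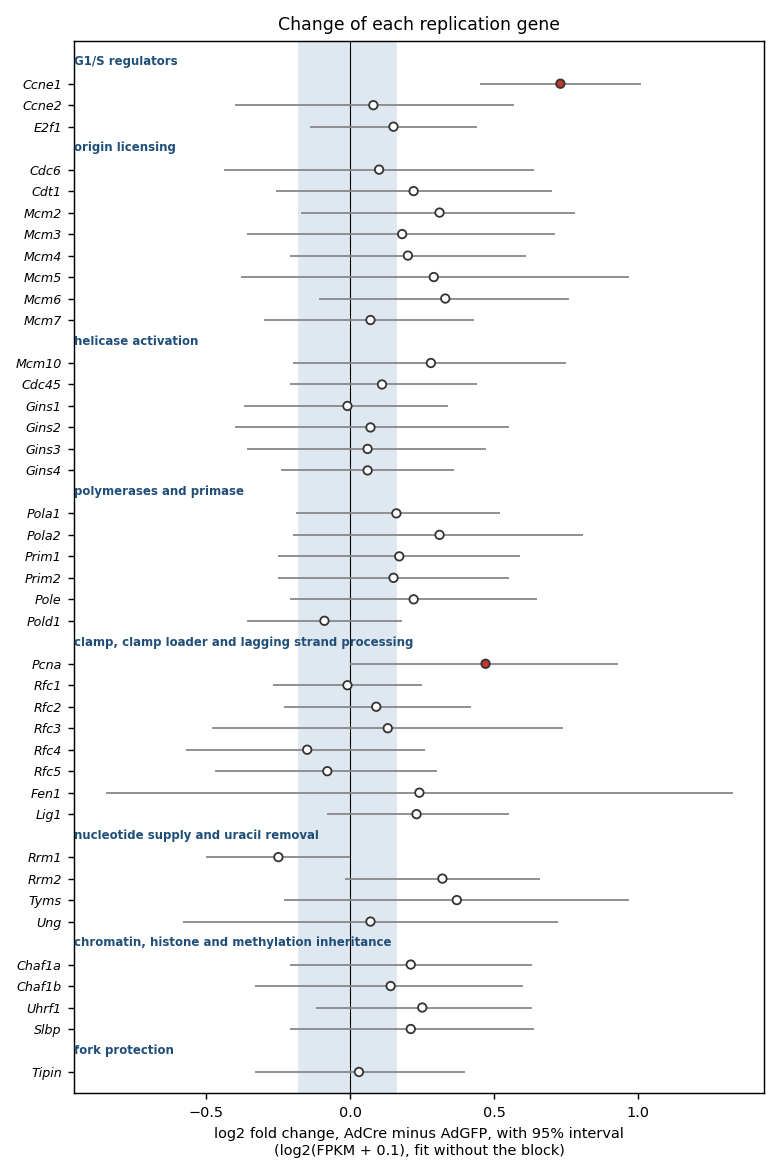
Log2 fold change of each replication gene, AdCre minus AdGFP, with its 95% interval from the fit without the block, and filled points for the genes called with the block. The shaded band spans the quartiles of all genes tested (-0.18 to 0.16), and most of the points lie to the right of 0 with intervals that cross it.

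Differences within same-numbered samples were uneven over the pairs. In pair 1, AdCre was the higher sample for 31 genes with a median difference of 0.10 (log2), in pair 2 for 22 genes with a median of 0.06, and in pair 3 for 35 genes with a median of 0.31. Over all genes tested the share higher was 50.5%, 47.7% and 50.2% and the medians were 0.01, -0.01 and 0.00. All 3 pairs agreed on a higher AdCre value for 15 of the 40 genes (37.5%), against 23.9% of all genes, and on a lower one for 1 gene, Rrm1 (2.5%), against 24.5%. Leaving out single libraries moved these values. Without AdCre 1, 28 of the 40 genes were higher and the median fell to 0.08, without AdGFP 2 it was 0.09, and without AdCre 2, 36 genes were higher and the median was 0.29.

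**Figure D3:**
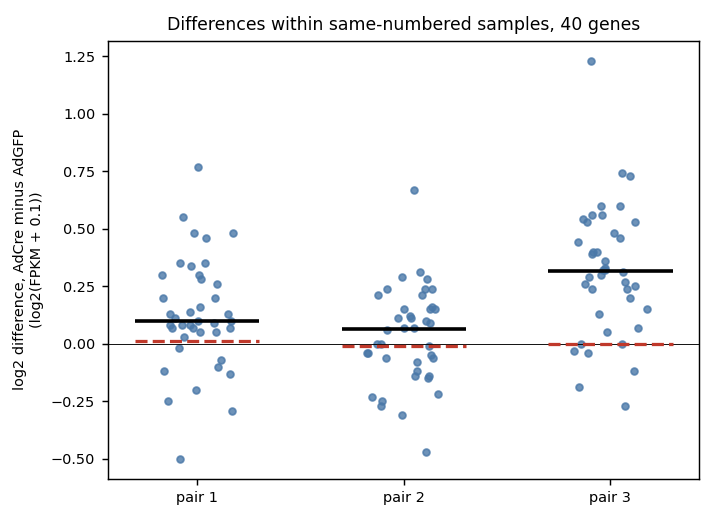
Difference of each of the 40 genes within pairs 1, 2 and 3, AdCre minus AdGFP on the log2(FPKM + 0.1) scale, with 1 point for each gene, a black line at their median and a dashed red line at the median of all genes tested. The black lines lie at 0.10, 0.06 and 0.31, and the red ones near 0.

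By sample, AdCre 1 held the highest value for 18 of the 40 genes and AdCre 3 for 13, whereas AdCre 2 did for 1. Within its own group AdCre 2 was the lowest sample for 33 genes, and AdGFP 1 was the highest of its group for 29. A group's range therefore often spanned most of the other group, and complete separation was rare. It occurred upward for 1 gene, Ccne1 (2.5%, against 7.36% of all genes), and downward for 1 gene, Rrm1 (2.5%, against 8.02%).

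Cyclin E1 differed most of the 40. Ccne1 (ENSMUSG00000002068, chr7:38097984-38107534, minus strand, GRCm38) encodes the cyclin that with its kinase starts S phase. It was at 11.4, 10.2 and 10.4 FPKM in AdGFP 1 to 3 and at 19.5, 16.4 and 17.4 FPKM in AdCre 1 to 3. The 3 AdCre values all exceeded the 3 AdGFP values, which were close together. The means were 10.7 ± 0.632 and 17.7 ± 1.61 FPKM (SD, n = 3 each), a 1.65-fold difference. On the log2 scale this was 0.73, with a standard error of 0.12 and a 95% interval from 0.45 to 1.01 (limma adjusted p = 0.144, and 0.0145 with the block). Within pairs 1 to 3 the difference was 0.77, 0.67 and 0.74. Over the alternatives the fold change ran from 0.66 to 0.82 and the adjusted p from 0.00121 to 0.604. The exact two-sided permutation test gave p = 0.1, the smallest that 3 samples against 3 allow.

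The other E-type cyclin, Ccne2, did not show that separation. It was at 12.7, 9.36 and 7.59 FPKM in AdGFP 1 to 3 and at 11.6, 10.4 and 8.96 FPKM in AdCre 1 to 3. The AdCre values lay inside the range of the controls, and the log2 fold change was 0.08 with a 95% interval from -0.4 to 0.57. Antisense exons overlap 17.4% of the Ccne2 exon sequence, with the largest share from Ints8. The strand setting of the counting is not given in the sources used here. The log2 ratio of Ccne1 to Ccne2 was -0.16, 0.12 and 0.45 in AdGFP 1 to 3 and 0.75, 0.65 and 0.95 in AdCre 1 to 3, a difference in means of 0.64. All AdCre ratios lay above all AdGFP ratios. This ratio was picked after the values were seen and is given as a description without a p-value. E2f1, which activates many S phase genes, had means of 10.6 ± 1 (AdGFP) and 11.8 ± 0.747 FPKM (AdCre), higher in all 3 pairs by between 0.11 and 0.20 (log2), with overlapping groups and an adjusted p = 0.766.

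**Figure D4:**
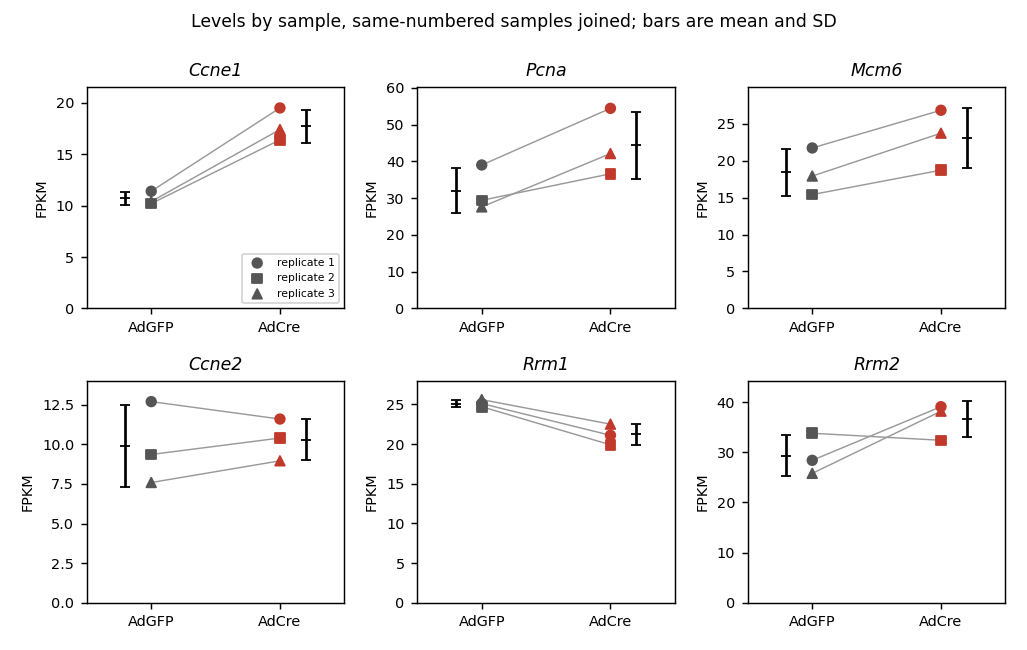
FPKM of Ccne1, Pcna, Mcm6, Ccne2, Rrm1 and Rrm2 in each sample, on linear axes from 0, with lines joining same-numbered samples and black bars for the mean and SD of each group. Ccne1 separates the groups upward and Rrm1 downward, while the other 4 overlap.

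All 8 licensing genes were higher in AdCre, with log2 fold changes between 0.07 and 0.33 and a median of 0.21, where 49.6% of all genes were higher. None was called with or without the block, 0 had an unadjusted p under 0.05 without it (10.2% of all genes) and 3 of the 8 with it (24.7% of all genes), and the groups overlapped for each. Mcm3, a ring subunit and the most abundant licensing gene, was at 26.3, 16.9 and 15.9 FPKM in AdGFP 1 to 3 and at 25, 17.8 and 23 FPKM in AdCre 1 to 3. Its highest value belonged to a control sample, and its fold change of 0.18 came almost wholly from pair 3 (0.53, against -0.07 and 0.07). Mcm6, a further ring subunit and the licensing gene with the smallest p, was at 21.7, 15.4 and 17.9 FPKM in AdGFP 1 to 3 and at 26.8, 18.7 and 23.7 FPKM in AdCre 1 to 3. Each AdCre sample lay above its same-numbered control, by 0.30, 0.28 and 0.40 on the log2 scale. The fold change of 0.33 had a standard error of 0.18 (adjusted p = 0.627, and 0.0634 with the block) and was 0.21 without AdGFP 2.

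The remaining ring subunits were examined together. Summed over Mcm2 to Mcm7, the ring was at 118, 83.1 and 87.7 FPKM in AdGFP 1 to 3 and at 131, 89.2 and 116 FPKM in AdCre 1 to 3, so that replicate 1 was the highest sample of each group. Mcm2 was at 9.81 ± 1.71 FPKM in AdGFP and 12.2 ± 2.68 in AdCre, Mcm4 at 17.2 ± 2.94 and 19.8 ± 2.95, and Mcm5 at 13.7 ± 4.07 and 16.9 ± 5.29. Mcm7 differed least of the ring, with 17.4 ± 1.81 and 18.3 ± 2.85 FPKM, a fold change of 0.07 that turned to -0.01 without AdCre 1. Of the 50-base words in its transcripts, 23.3% also occur in other genes, most often in Gm5487. The log2 ratio of Mcm6 to Mcm7, again picked after its values were seen, was 0.16, -0.08 and 0.13 in AdGFP and 0.41, 0.32 and 0.26 in AdCre.

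Cdc6 and Cdt1, which load the ring, were examined beside it. Cdc6 had means of 1.99 ± 0.324 (AdGFP) and 2.17 ± 0.501 FPKM (AdCre). For Cdt1 the values were 9.5, 8.87 and 8.59 FPKM in AdGFP 1 to 3 and 14, 8.05 and 10.2 FPKM in AdCre 1 to 3. AdCre 1 held the highest value and AdCre 2 the lowest, and the fold change of 0.22 was 0.01 without the former and 0.41 without the latter.

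Genes that activate the helicase lay closer to the background by their median. Of the 6 genes (Mcm10, Cdc45 and Gins1 to Gins4), 5 were higher in AdCre, with a median of 0.06. None was called in either limma fit (0 at an unadjusted p under 0.05 in both, against 10.2% and 24.7% of all genes). Gins4, the most abundant of the 6, was at 13.6, 12.6 and 15.5 FPKM in AdGFP 1 to 3 and at 14.3, 13.3 and 15.5 FPKM in AdCre 1 to 3. The groups covered nearly the same range, and the 95% interval of its fold change ran from -0.24 to 0.36. Mcm10, which helps the loaded helicase open DNA, was at 1.97, 1.4 and 1.51 FPKM in AdGFP 1 to 3 and at 2.04, 1.68 and 2.23 FPKM in AdCre 1 to 3. It was higher in all 3 pairs, with a fold change of 0.28 (0.18 without AdGFP 2) and an adjusted p = 0.725. The 4 GINS subunits, which form a single complex, summed to 23, 21.1 and 24.1 FPKM in AdGFP and to 24, 21 and 25.8 FPKM in AdCre. Gins1 was at -0.01 and turned to 0.07 when rescaled to TPM. Antisense exons overlap 67.3% of the Gins2 exon sequence, with the largest share from Gse1. Cdc45 had means of 4.23 ± 0.268 and 4.6 ± 0.543 FPKM.

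Among the polymerases and primase, 5 of 6 genes were higher in AdCre, with a median of 0.17. None was called in either limma fit (0 at an unadjusted p under 0.05, and 1 with the block). Over all genes 10.2% had such a p, and 24.7% with the block. Pola2, the regulatory subunit of polymerase alpha, had both the highest level and the smallest p of these 6 genes. Its FPKM values gave whole reads at an exon length of 2872 bases, where GENCODE M21 has 8294. Its rank by level depends on that length. Pola2 was at 11.5, 7.85 and 6.94 FPKM in AdGFP 1 to 3 and at 12.4, 9.32 and 10.3 FPKM in AdCre 1 to 3. The control of replicate 1 lay within the AdCre range, and all 3 pairs were higher in AdCre, by 0.11, 0.24 and 0.56. Its fold change was 0.31 (adjusted p = 0.705, and 0.163 with the block), and it was 0.16 without AdGFP 3 and 0.52 without AdGFP 1. The catalytic subunit Pola1 was at 2.94 ± 0.279 and 3.31 ± 0.365 FPKM. The primase subunits Prim1 (3.02 ± 0.522 and 3.38 ± 0.37 FPKM) and Prim2 (2.76 ± 0.354 and 3.08 ± 0.434 FPKM) had fold changes of 0.17 and 0.15, which were 0.03 without AdGFP 2 and 0.04 without AdCre 1. Between the catalytic subunits of the leading and lagging strand polymerases, Pole had a fold change of 0.22 (0.10 without AdCre 3 and 0.34 without AdCre 2) and Pold1 one of -0.09, and the latter was 0.00 when rescaled to TPM.

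Pcna (ENSMUSG00000027342, chr2:132249162-132253314, minus strand, GRCm38), the clamp that holds polymerases to DNA, was the most abundant of the 40 genes. It was at 39.0, 29.4 and 27.6 FPKM in AdGFP 1 to 3 and at 54.4, 36.6 and 42.1 FPKM in AdCre 1 to 3. The groups overlapped because AdGFP 1 lay above AdCre 2, but each AdCre sample was above its own control, by 0.48, 0.31 and 0.60 (log2). Means of 32.0 ± 6.09 and 44.4 ± 9.14 FPKM gave a 1.38-fold difference. On the log2 scale this was 0.47, with a standard error of 0.20 and a 95% interval from 0.00 to 0.93 (limma adjusted p = 0.492, and 0.039 with the block). Over the alternatives it ran from 0.31, without AdCre 1, to 0.62, and the adjusted p from 0.00601 to 0.985. Of the 50-base words in its transcripts, 19.1% also occur in other genes, most often in the pseudogene Pcna-ps2.

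The fold changes of the loader of that clamp lay around 0. Rfc1, the large subunit of replication factor C, had means of 12.5 ± 0.121 and 12.4 ± 0.975 FPKM and a fold change of -0.01 with a 95% interval from -0.27 to 0.25. The 5 subunits together were at 38.2, 33.4 and 34 FPKM in AdGFP 1 to 3 and at 36.9, 31.8 and 35.1 FPKM in AdCre 1 to 3, with 2 higher and 3 lower, between -0.15 for Rfc4 and 0.13 for Rfc3. Rfc1 turned to 0.08 and Rfc5 (-0.08) to 0.00 when rescaled to TPM. The log2 ratio of Pcna to Rfc1, picked after its values were seen, was 1.64, 1.22 and 1.15 in AdGFP and 2.02, 1.54 and 1.88 in AdCre, and these ranges overlapped.

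On the lagging strand, Lig1, the ligase that seals Okazaki fragments, was at 9.19 ± 1.15 and 10.8 ± 0.758 FPKM and higher in all 3 pairs (0.10, 0.21 and 0.39). Its adjusted p was 0.627, and 0.192 with the block. Fen1, the nuclease that trims those fragments, had the lowest mean level of the set and the widest interval, from -0.85 to 1.33. Its values were 2.04, 1.33 and 0.502 FPKM in AdGFP and 1.65, 1.14 and 1.31 FPKM in AdCre, and its fold change of 0.24 turned to -0.27 without AdGFP 3, the sample with 30 reads. Antisense exons overlap 84.2% of the Fen1 exon sequence, with the largest share from Gm10143. In the group of clamp, loader and lagging strand genes as a whole, 5 of 8 were higher with a median of 0.11, and 1 was called with the block. Over all genes 49.6% were higher, and the block called 6.15%, with 2.64% called as higher.

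The subunits of ribonucleotide reductase, the enzyme that makes deoxyribonucleotides, had fold changes of opposite sign. Rrm2, the small subunit whose level is known to peak in S phase, was at 28.4, 33.8 and 25.8 FPKM in AdGFP 1 to 3 and at 39.1, 32.4 and 38.2 FPKM in AdCre 1 to 3. It was higher in pairs 1 and 3 and slightly lower in pair 2, and the groups overlapped. The fold change of 0.32 had a standard error of 0.14 (adjusted p = 0.519). Rrm1 (ENSMUSG00000030978, chr7:102441695-102469771, plus strand, GRCm38), the large subunit, was at 25.1, 24.7 and 25.6 FPKM in AdGFP 1 to 3 and at 21.1, 19.9 and 22.5 FPKM in AdCre 1 to 3. Every AdCre sample lay below every control, by 0.25, 0.31 and 0.19 (log2) within pairs. Its means were 25.1 ± 0.441 and 21.2 ± 1.28 FPKM, and the fold change of -0.25 had a standard error of 0.10 (adjusted p = 0.488, and 0.109 with the block).

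The log2 ratio of Rrm2 to Rrm1 was 0.18, 0.45 and 0.01 in AdGFP 1 to 3 and 0.89, 0.70 and 0.76 in AdCre 1 to 3. All AdCre ratios exceeded all AdGFP ratios, with a difference in means of 0.57. This ratio too was picked after its values were seen, so no p-value is given for it. Thymidylate synthase (Tyms) was at 3.48 ± 0.49 and 4.65 ± 1.53 FPKM with a fold change of 0.37 that was 0.14 without AdCre 3 and 0.61 without AdCre 2. Ung, which removes uracil from DNA, was at 3.35 ± 0.519 and 3.64 ± 1.32 FPKM.

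All 4 genes of chromatin, histone and methylation inheritance were higher in AdCre, between 0.14 and 0.25 with a median of 0.21. None was called in either limma fit (0 at an unadjusted p under 0.05, and 1 with the block). Over all genes 10.2% had such a p, and 24.7% with the block. In pair 2 alone, 1 of the 4 was higher. Uhrf1, which brings the maintenance DNA methyltransferase to newly copied DNA, was at 12.9, 11.2 and 13.7 FPKM in AdGFP 1 to 3 and at 16, 12.4 and 17.1 FPKM in AdCre 1 to 3. AdCre 2 lay within the control range and the other AdCre samples above it. The fold change was 0.25 (adjusted p = 0.659, and 0.127 with the block), from 0.16 without AdCre 3 to 0.39 without AdCre 2. Of the 50-base words in the Uhrf1 transcripts, 15.4% also occur in other genes, most often in Gm5648. The chromatin assembly factor subunits Chaf1a (3.05 ± 0.402 and 3.55 ± 0.595 FPKM) and Chaf1b (3.66 ± 0.563 and 4.07 ± 0.862 FPKM) differed by 0.21 and 0.14. With single samples left out, these ran from 0.13 to 0.35 and from -0.01 to 0.29. Antisense exons overlap 52.5% of the Chaf1a exon sequence, with the largest share from Ubxn6. Slbp, which binds the stem-loop of histone messenger RNA, was at 4.84 ± 0.117 FPKM in AdGFP, with 6.66, 4.32 and 6.18 FPKM in AdCre 1 to 3 on either side of that level.

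Tipin, which with Timeless protects stalled forks, was at 14.9, 10.5 and 12.2 FPKM in AdGFP 1 to 3 and at 13.7, 11.8 and 12.6 FPKM in AdCre 1 to 3. The AdCre samples lay inside the control range, and the fold change was 0.03 with a 95% interval from -0.33 to 0.40.

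E2F recognition letters were searched in the promoters, since the set is known for control by E2F. RefSeq promoter windows (GRCm38.p6, 250 bases before to 50 after the start) were held for 31 of the 40 genes. The E2F letters searched on both strands were TTTCCCGC, TTTCGCGC, TTTGCCGC and TTTGGCGC, and they occurred in 12 of the 31 genes (38.7%), against 2.6% of 27025 genes with such windows. Of the other replication genes described further on, 19 of the 61 with windows held them as well. The 12 were Cdc6, Cdt1, Mcm3, Mcm5, Mcm6, Mcm7, Gins3, Pola1, Pold1, Rfc3, Lig1 and Uhrf1. Examples from licensing, the clamp loader and chromatin inheritance follow with 1 match each in capitals, 5′ to 3′ on the strand of the gene, to show the stretches that hold these letters. The Mcm5 and Rfc3 stretches hold a further match that is not capitalised, which in Mcm5 overlaps the capitals.
Mcm6, chr1:128359734-128359763, minus strand: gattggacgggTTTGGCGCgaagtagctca
Mcm5, chr8:75109345-75109374, plus strand: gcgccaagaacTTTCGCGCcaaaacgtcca
Mcm3, chr1:20820275-20820304, minus strand: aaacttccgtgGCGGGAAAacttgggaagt
Cdc6, chr11:98908002-98908031, plus strand: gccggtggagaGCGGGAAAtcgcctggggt
Rfc3, chr5:151651200-151651229, minus strand: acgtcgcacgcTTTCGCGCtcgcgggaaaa
Uhrf1, chr17:56304117-56304146, plus strand: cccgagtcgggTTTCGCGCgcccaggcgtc

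These letters did not divide the genes by their differences. The 12 genes with them had a median fold change of 0.17 (11 of 12 higher), the 19 without had 0.21 (15 of 19 higher), and the 9 without a window had 0.08 (8 of 9 higher). CCAAT occurred in 18 of the 31 genes (58.1%, against 41.1% of all), and TTTGAA, the core of the cell cycle homology region known from late cell cycle genes, in 4 (12.9%, against 20.2%). GGGCGG, the GC box, was added after values were seen and occurred in 24 (77.4%, against 38.2%). Ccne1 and Pcna, the genes called with the block, had none of the E2F letters in their windows. The 200 bases before their RefSeq starts follow on the strand of the gene, with CCAAT and GC box letters of either strand in capitals.
Ccne1, chr7:38107491-38107690, minus strand: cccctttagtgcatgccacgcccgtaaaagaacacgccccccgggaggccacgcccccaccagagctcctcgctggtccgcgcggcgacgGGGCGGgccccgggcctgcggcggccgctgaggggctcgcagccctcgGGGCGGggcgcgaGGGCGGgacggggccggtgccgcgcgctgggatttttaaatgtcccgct
Pcna, chr2:132253181-132253380, minus strand: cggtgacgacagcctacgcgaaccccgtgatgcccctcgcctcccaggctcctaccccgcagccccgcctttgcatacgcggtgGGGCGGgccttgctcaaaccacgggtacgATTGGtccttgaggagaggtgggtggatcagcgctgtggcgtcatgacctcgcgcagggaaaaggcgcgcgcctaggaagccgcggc
The Ccne1 stretch has a G and C content of 76% with 3 GC boxes and no CCAAT, and the Pcna stretch 68% with 1 of each. A match is a run of letters and not a measured site, and letters that are absent from a window leave the factor untested.

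Another 72 genes of replication, listed by role in the same way, were examined beside the 40. Of these, 45 were higher and 27 lower in AdCre, with a median of 0.07, where 49.6% of all genes were higher. Without the block 0 were called (5 at an unadjusted p under 0.05 in limma, against 10.2% of all genes). With it 2 of the 72 were called, both as higher, where 6.15% of all genes were called and 2.64% as higher. Cad, which carries out the opening steps of pyrimidine synthesis, was at 7.29, 6.0 and 6.67 FPKM in AdGFP 1 to 3 and at 11.6, 7.93 and 11.1 FPKM in AdCre 1 to 3. Its groups did not overlap, and its fold change was 0.60 (adjusted p = 0.338, and 0.0336 with the block). Samhd1, which breaks deoxynucleotides down, was at 3.63, 4.61 and 5.25 FPKM in AdGFP 1 to 3 and at 5.63, 5.76 and 8.03 FPKM in AdCre 1 to 3, also without overlap. Its fold change was 0.51 (adjusted p = 0.452, and 0.0499 with the block).

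Upstream of cyclin E, all 3 D-type cyclins were higher in AdCre (49.6% of all genes were), and 2 were called with the block (2.64% of all genes as higher). Ccnd1 was at 36.6 ± 8.48 and 80.1 ± 9.36 FPKM, a fold change of 1.15 (adjusted p = 0.144, and 0.00969 with the block). Ccnd2 was at 68.0 ± 7.32 and 92.3 ± 4.19 FPKM, a fold change of 0.45 (0.329, and 0.0388). Downstream, 11 of 15 mitosis markers were higher, with a median of 0.12, and none was called in either limma fit (0 at an unadjusted p under 0.05 in both). Mki67, which marks cycling cells, was at 9.25, 15.7 and 17.6 FPKM in AdGFP 1 to 3 and at 9.21, 17.0 and 18.9 FPKM in AdCre 1 to 3, with a fold change of 0.07 and an interval from -0.73 to 0.87.

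Replication genes and mitosis markers ordered the replicates differently. The summed level of the replication genes was the highest of its group in replicate 1 in both groups. That of the mitosis markers was the lowest there, at 123, 193 and 174 FPKM in AdGFP 1 to 3 and at 131, 175 and 226 FPKM in AdCre 1 to 3. What the numbers stand for is not given in the sources used here.

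Markers of the cell types that a heart culture can hold differed between the groups as well. The cultures expressed all 10 cardiomyocyte markers, and each of them was lower in AdCre, with a median of -0.80 and 7 called with the block. Their summed level was between 4120 and 6700 FPKM in AdGFP and between 2540 and 4380 FPKM in AdCre. Over all genes 49.6% were higher in AdCre, and the block called 6.15%, with 2.64% called as higher. An unadjusted p under 0.05 with the block was had by 24.7% of all genes. Fibroblast markers were lower for 6 of 8 (2 called with the block), with sums between 2580 and 4600 FPKM and between 2270 and 3300 FPKM. All 8 endothelial markers were higher (3 called), with sums between 83.3 and 137 FPKM in AdGFP and between 122 and 192 FPKM in AdCre. All 6 macrophage markers tested were higher (2 called), with sums between 49 and 267 FPKM and between 87.2 and 335 FPKM. Smooth muscle and pericyte markers were higher for 5 of 7 (819 to 1310 and 975 to 1210 FPKM), and epicardial or mesothelial ones lower for 4 of 5 (94 to 173 and 94.9 to 107 FPKM). None of the former was called with the block (0, with 1 at an unadjusted p under 0.05), and 1 of the latter was, Tbx18, at -0.45 without overlap (adjusted p = 0.0441 with the block). No marker was at 0 in any sample, and Ptprc of the macrophage list was too low to be tested. In bulk samples fewer cells of a type and less RNA per cell cannot be told apart. The part of these markers in the values of the replication genes was not tested.

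**Figure D5:**
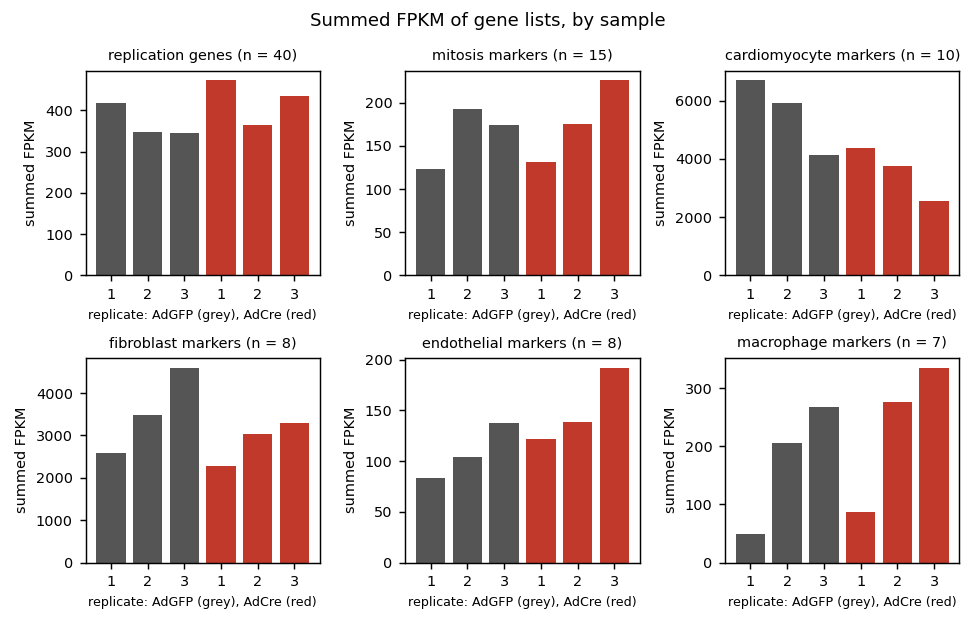
Summed FPKM of the 40 replication genes and of the marker lists in each sample, on axes from 0, with AdGFP in grey and AdCre in red and replicates 1 to 3 in order. Replicate 1 is highest of its group for the replication genes and lowest for the mitosis and macrophage markers, and all cardiomyocyte sums of AdCre lie below that of AdGFP 1.

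Sums of FPKM over all genes were not equal between samples, and rescaling each sample to the same sum (TPM) moved the median of all genes to 0.09 and that of the replication genes to 0.25, with 38 of 40 higher. Scaling to the totals of the recovered reads gave 0.06 and 0.22 with 36 of 40 higher, and median centring 0.01 and 0.17 with 35 of 40. Apart from the pseudocount, each of these scalings adds 1 constant per sample on the log2 scale, so the distance between both medians is fixed by construction. The recovered totals were not those that the FPKM scale implies. In AdGFP 1 the total was 26.22 M reads against an implied 24.71 M, and in AdCre 3 it was 26.71 M against 27.71 M.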

How the data were processed

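RNA was sequenced from 6 samples, 3 AdGFP and 3 AdCre, grouped by their labels. Per the labels, poly-T beads selected messenger RNA, which was copied from random hexamers. The submitters' processing notes name fastp, STAR 2.5, HTSeq 0.6.1 and the mm10 build, whereas the annotation and the strand setting are not given in the sources used here. The authors deposited FPKM per gene and sample, without pooling. FPKM values were whole multiples of 1 read for 96.8% of the 28433 genes above 0 at their GENCODE M21 exon lengths (tolerance 0.02 reads) and for 99.74% after a search over length, and these reads gave the depth, which limits genes with few reads. Of the IDs, 54495 of 54532 were in GENCODE M21.

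The 40 genes, the lists and the promoter letters were chosen with earlier results of these data known. Genes whose mean over the samples reached 0.5 FPKM were fitted in limma 3.58.1 (R 4.3.3) on log2(FPKM + 0.1) with a term for group and an intensity trend, with two-sided tests and Benjamini-Hochberg adjustment over all 13794 genes. The same replicate numbers occur in both groups. Deviations from the group means correlated across genes at 0.568, 0.268 and 0.506 for same-numbered samples and between -0.497 and 0.036 for others, and all same-numbered values exceed 0.1. The pairing thus rests on these values alone, and a fit with the replicate block is given where it changes a call. Differences between replicates of a group were larger than counting noise (chi-square per degree of freedom between 38.81 and 124.2).

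Values in every sample are given, for each role, for the gene with the highest mean, that with the smallest p and any called in either fit, and for called genes among the other 72. Those of Ccne2, Cdt1, Fen1, Slbp and Mki67, and the ratios, were chosen after their values were seen. The alternatives run were a pseudocount of 1 or 0.01, a minimum mean of 1 FPKM or none, median centring, rescaling to TPM or to read totals, protein-coding genes alone, eBayes without a trend, voom on the recovered reads, the block, the block with each pair left out, and leaving out each sample. The alternatives of scale, filter and test were repeated with the block, a choice made after the data were seen. The fits were tested on simulated data. Loci are from GENCODE M21 and promoters from RefSeq. Python 3.11.15 with numpy 2.4.6, pandas 2.3.3 and matplotlib 3.10.9 was also used.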

Additional observations from a re-analysis of the deposited data

How the results depend on the processing

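Without the block, 0 of the 40 replication genes were called under every alternative run. Of the 40, 23 genes kept the sign of their fold change under all 30 alternatives, and the median of the 40 stayed above 0 in each, from 0.08 to 0.29. With the replicate block 2 genes were called, and the blocked fit called 2 with a pseudocount of 1 or 0.01, a mean of at least 1 FPKM or median centring, 3 with protein-coding genes, TPM or read totals (Mcm6 added), 4 with voom (Mcm2 and Mcm6 added), 1 without pair 1, and 0 with no filter, no trend, without pair 2 or without pair 3. Ccne1 was called in 10 of 14 blocked settings, Pcna in 9 and Mcm6 in 4. The cause of these changes was not tested.

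Over all genes, 1 was called without the block, 3 with a pseudocount of 1, 4 without a trend, and 0 with no filter or with voom (2168 and 1450 at an unadjusted p under 0.05), and between 0 and 2 when a sample was left out (2 without AdGFP 1). The replicate block called 848, and with it 772 were called without pair 1, 149 without pair 2, 1 without pair 3 (2499 at an unadjusted p under 0.05), 784 and 782 with pseudocounts of 1 and 0.01, 17 with no filter, 922 with a mean of at least 1 FPKM, 1167 with protein-coding genes, 875 with TPM, 778 with median centring, 873 with read totals, 0 without a trend (3122 at an unadjusted p under 0.05) and 1717 with voom.

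Of the 17 genes whose fold change took the other sign or reached 0.00 in some setting, none was called in any. TPM gave 0.07 for Gins1, 0.08 for Rfc1 and 0.00 for Pold1 and Rfc5, with and without the block. Read totals gave 0.05 for Gins1 and Rfc1, voom 0.04 and 0.05, and median centring 0.00 for Rfc1, in both fits alike. In the blocked fit, leaving out pair 3 gave 0.00 for Mcm3, -0.04 for Mcm7, -0.09 for Gins2, -0.08 for Gins3, 0.04 for Rfc1, -0.05 for Rfc3 and -0.25 for Fen1. Leaving out pair 1 gave 0.03 for Gins1, 0.02 for Rfc4 and -0.08 for Ung, and leaving out pair 2 gave 0.11 for Rfc5 and -0.03 for Tipin. Leaving out single samples moved Ccne2 from -0.09 to 0.28, Cdc6 from -0.01 to 0.30, Mcm7 from -0.01 to 0.20, Gins1 from -0.09 to 0.06, Gins2 from -0.08 to 0.27, Gins3 from -0.05 to 0.18, Gins4 from -0.01 to 0.14 and Rfc1 from -0.06 to 0.05. The ranges were -0.05 to 0.38 for Rfc3, -0.27 to 0.03 for Rfc4, -0.18 to 0.07 for Rfc5, -0.27 to 0.64 for Fen1, -0.19 to 0.34 for Ung, -0.01 to 0.29 for Chaf1b and -0.09 to 0.16 for Tipin. With the sign kept, they were 0.07 to 0.20 for E2f1, 0.16 to 0.48 for Mcm2, 0.04 to 0.40 for Mcm3, 0.07 to 0.33 for Mcm4, 0.07 to 0.53 for Mcm5, 0.03 to 0.20 for Cdc45, 0.09 to 0.25 for Pola1, 0.03 to 0.27 for Prim1, 0.04 to 0.23 for Prim2, 0.01 to 0.16 for Rfc2, 0.13 to 0.35 for Chaf1a and 0.09 to 0.40 for Slbp.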

Other observations

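Genes linked to p53 that bear on replication were listed apart, 7 in all, of which 4 were higher in AdCre and 2 were called with the block, Cdkn1a and Pcna (0 without it, with 2 at an unadjusted p under 0.05 in limma). Over all genes 49.6% were higher, 6.15% were called with the block and 10.2% had such an unadjusted p. Cdkn1a, which inhibits cyclin-dependent kinases and binds the Pcna clamp, was at 129, 98.2 and 97.5 FPKM in AdGFP 1 to 3 and at 164, 142 and 144 FPKM in AdCre 1 to 3. The groups did not overlap, and its fold change was 0.48 (adjusted p = 0.373, and 0.0328 with the block). Ddb2, a sensor of damaged DNA, had the same fold change at a far lower level, with means of 0.745 ± 0.158 and 1.07 ± 0.127 FPKM (adjusted p = 0.599). Polk and Polh, polymerases that copy past damage, were at -0.02 and -0.10.

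Among the E2F family outside the 40 genes, E2f8, a repressor of E2F targets in S phase, was at 5.07, 4.42 and 4.18 FPKM in AdGFP 1 to 3 and at 6.95, 5.55 and 6.35 FPKM in AdCre 1 to 3, without overlap (0.45, adjusted p = 0.354, and 0.0564 with the block). E2f2, an activator, was at 0.853 ± 0.096 and 1.29 ± 0.241 FPKM, also without overlap, with a fold change of 0.53 (adjusted p = 0.511, and 0.193 with the block). E2f7, a repressor like E2f8, was at 0.30 and higher in all 3 pairs with overlapping groups (adjusted p = 0.652). E2f3, E2f4, E2f5 and E2f6 had fold changes of -0.03, -0.11, 0.07 and 0.02. Orc5, a subunit of the origin recognition complex, had the lowest fold change of the 72 other replication genes at -0.46, with 2.93 ± 0.19 FPKM in AdGFP and 2.1 ± 0.21 FPKM in AdCre and no overlap (adjusted p = 0.367). Cdkn1a, Ddb2, Orc5 and the E2F genes were picked after their values were seen.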
